A study of Mus musculus with 10 samples.

Results

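The 10 genes described here belong to cellular iron handling and were chosen by gene name: Tfrc, Slc11a2, Slc11a1 and Lcn2 for uptake, Fth1 and Ftl1 for storage, Slc40a1 for export, Hmox1 for the release of iron from heme, and Ireb2 and Aco1 for the control of the others. All 10 were listed in both deposited tables, 10 of 23202 genes in sorted tumor macrophages and 10 of 19720 genes in whole tumors. All 10 also passed the filter of a mean of at least 1 CPM (reads per 1e+06 listed reads) over each table.

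The tumors arose in B6 mice with the MMTV-PyMT transgene, in which a viral oncogene driven by a mouse mammary tumor virus promoter gives mammary tumors. The labelled genotypes were B6:MMTV-PyMT;Cxcr4fl/fl;LysmCre, called cKO here, and littermates without LysmCre, called control, so floxed Cxcr4 is deleted where the myeloid LysM promoter drives Cre. Tumors were taken at 15 weeks of age, with sizes matched between groups. Macrophages were sorted on F4/80 and CD11b after digestion with collagenase and DNase of 3 mice labelled cKO (725, 746, 867) and of 3 control mice (706, 720, 775). Whole tumors, snap frozen, were profiled for mice 725 and 746 (labelled cKO) and for mice 706 and 720 (control). Each library is 1 mouse, so p-values measure the spread between mice.

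The macrophage libraries held 14.3 to 25.1 M reads and the tumor libraries 34.2 to 53.4 M reads (M, 1e+06), inferred from the steps between low values. The targeted gene does not check the labels, since Cxcr4 showed no reduction under the cKO label. In macrophages it stood at 41.9, 165 and 24.1 CPM in the libraries labelled cKO (725, 746, 867), against 14.5, 135 and 54.3 CPM in the controls (706, 720, 775), and in tumors at 47.9 and 57.6 CPM in the libraries labelled cKO, against 29.8 and 33.4 CPM in the controls. The 9 macrophage markers summed to 1432 to 2215 CPM in macrophage libraries labelled cKO and 753 to 1949 CPM in their controls, and to 76.8 to 84.3 CPM in tumors labelled cKO and 76.3 to 82.7 CPM in control tumors. The 8 epithelial markers were also high in the sorted cells, at 2150 to 3120 CPM in libraries labelled cKO and 2188 to 2700 CPM in controls. Library cKO 867 stood apart in fibroblast markers (1165 CPM, against 57.2 to 422 CPM in the other 5) and control 775 had the lowest macrophage markers (753 CPM).

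Cells take up transferrin-bound iron through the transferrin receptor, move it out of endosomes with divalent metal transporters, store it in ferritin shells and export it through ferroportin. Tissue macrophages are known for recycling iron from the heme of engulfed red cells, a route that runs through heme oxygenase and ferroportin. The iron regulatory proteins, encoded by Aco1 and Ireb2, bind short RNA hairpins called iron-responsive elements when iron is scarce, which blocks translation when the hairpin lies in a 5′ UTR and stabilizes the mRNA when it lies in the 3′ UTR of Tfrc.

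The elements are shown because they tie 5 of the 10 genes to the 2 regulators, which act partly without any change in mRNA level. They were searched for in the GENCODE vM21 transcripts (GRCm38) on the transcript strand only, and each is written 5′ to 3′ with its loop of 6 bases, CAGTGN with the last base not G, in capitals.
Tfrc, 3′ UTR, chr16:32631219-32631247, plus strand: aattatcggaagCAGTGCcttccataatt
Tfrc, 3′ UTR, chr16:32631598-32631626, plus strand: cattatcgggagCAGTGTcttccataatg
Tfrc, 3′ UTR, chr16:32631663-32631691, plus strand: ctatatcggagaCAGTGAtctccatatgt
Tfrc, 3′ UTR, chr16:32631710-32631738, plus strand: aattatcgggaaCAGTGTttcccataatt
Slc11a2, 3′ UTR, chr15:100395152-100395181, minus strand: agccatcagagcCAGTGTgtttctatggtt
Fth1, 5′ UTR, chr19:9982732-9982760, plus strand: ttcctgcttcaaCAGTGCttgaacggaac
Ftl1, 5′ UTR, chr7:45459779-45459807, minus strand: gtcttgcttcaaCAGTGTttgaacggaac
Slc40a1, 5′ UTR, chr1:45925465-45925493, minus strand: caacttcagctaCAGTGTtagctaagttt

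The search asked for that loop, a C that bulges out 6 bases before it, 5 paired bases between the bulge and the loop, with G-T pairs allowed, and at least 4 pairs among the 6 positions below the bulge. Of 21901 protein-coding genes, 90.3% held the loop letters somewhere in a transcript, 35 (0.160%) held the whole element, and 18 (0.0822%) held it in a UTR. The genes with it in a UTR included Tfrc, Fth1, Ftl1 and Slc40a1, and outside the 10 also Alas2. Tfrc held 4 such elements, and the Fth1 and Ftl1 elements differed at 3 of 29 bases. The Slc11a2 element has 1 unpaired base in its 3′ arm and was found under a rule that allows this, which 26 genes (0.119%) met, 13 of them (0.0594%) in a UTR. It lies in a single annotated transcript, and gene-level values do not separate that transcript from the others. A match is a match of letters and shows no binding.

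Relative levels of the 10 genes within a table were set side by side per kb of their main transcript. In macrophages, averaged over the 6 libraries, Lcn2 had 942 ± 407 CPM per kb, Fth1 897 ± 404, Ftl1 367 ± 188 and Hmox1 101 ± 56.6 (SD, n = 6). Ireb2 followed at 36.0 ± 5.50 CPM per kb, and Tfrc, Slc11a1, Slc11a2, Aco1 and Slc40a1 averaged 9.89 to 21.3 CPM per kb. Fth1 lay above Ftl1, Ftl1 above Hmox1 and Slc11a2 above Aco1 in 6 of 6 libraries, while Lcn2 exceeded Fth1 in 4 of 6 and Tfrc exceeded Slc11a1 in 3 of 6, so these last 2 pairs were not separated by their spread. The Ftl1 level leaves out its copy Ftl1-ps1, which shares much of its sequence. Together they had 1173 CPM in cKO 746, above the 953 CPM of Fth1, and less than Fth1 in every other macrophage library. In whole tumors Lcn2 again came first, at 914 ± 110 CPM per kb, followed by Fth1 at 199 ± 36.9 and Ireb2 at 64.0 ± 2.55 (SD, n = 4), in that order in 4 of 4 libraries. Slc11a1 came last in tumors at 0.784 ± 0.346 CPM per kb, below Slc11a2 in 4 of 4 libraries.

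**Figure D1:**
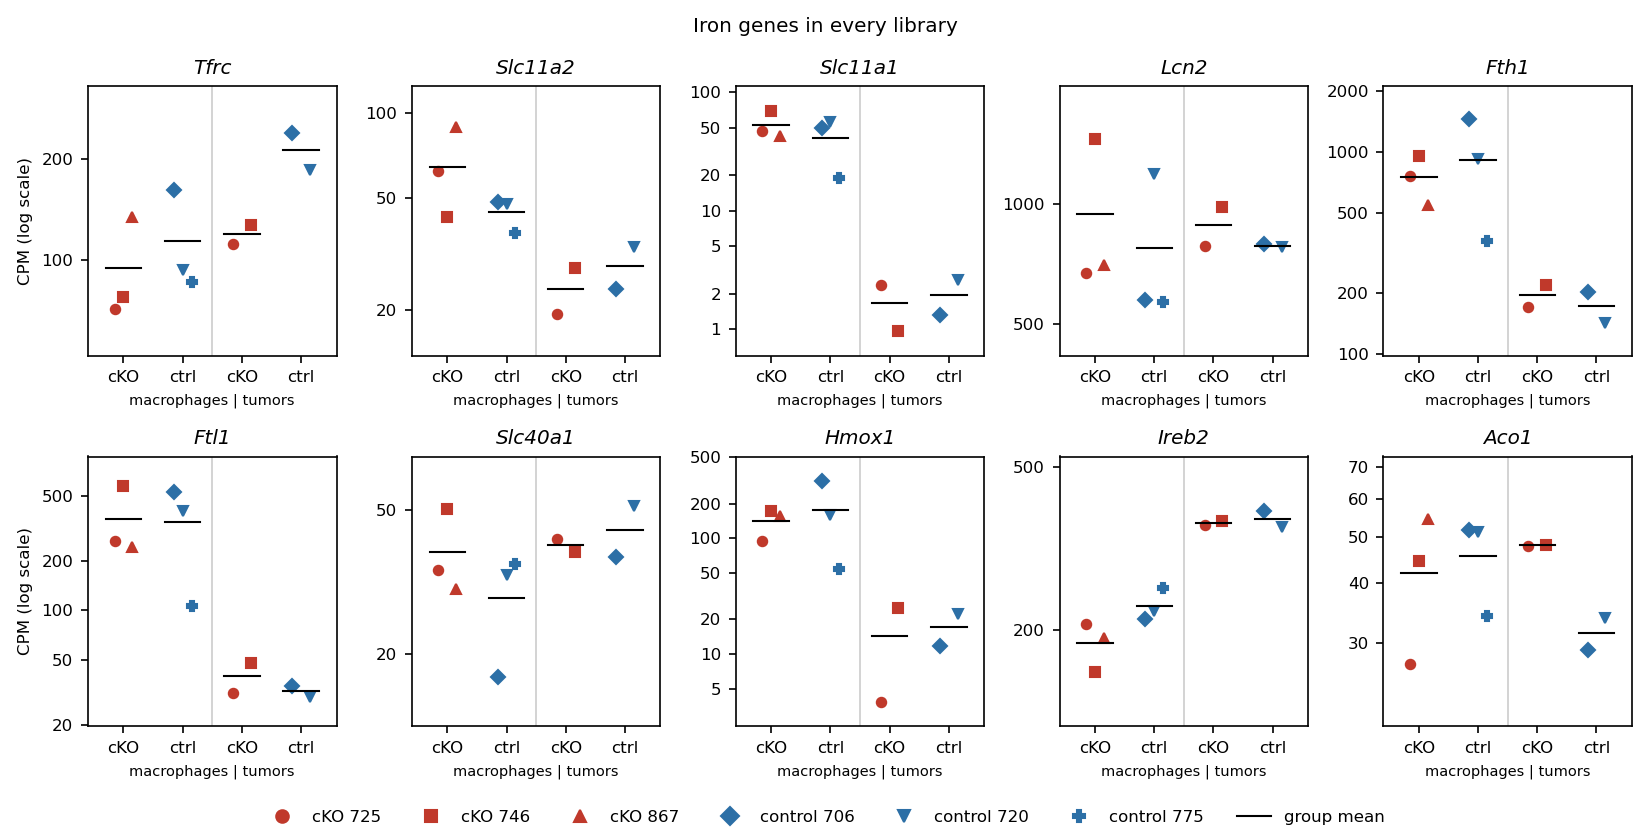
Level of each iron gene in CPM (log axis, scaled per panel) in every library, with macrophages left and whole tumors right of the grey line, red for libraries labelled cKO, blue for control, 1 symbol per mouse and a black line for the group mean. Ferritin genes, Hmox1 and Slc11a1 stand higher in every macrophage library than in every tumor, in tables that were normalized separately. Control 775 lies nearest to the tumors, with Fth1 at 364 CPM and Hmox1 at 54.4 CPM, against at most 221 and 24.8 CPM there. The groups do not overlap for Tfrc in tumors (112 and 127 CPM in libraries labelled cKO, 240 and 185 CPM in controls), Aco1 in tumors and Ireb2 in macrophages. In tumors 14.3% of all genes tested lie lower without overlap, as Tfrc does, and 21.2% higher, as Aco1 does. In macrophages 3.45% lie lower, as Ireb2 does.

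Which of these transcripts are concentrated in the sorted cells was read from the 4 mice that gave both kinds of library. The 2 tables were normalized separately, so these ratios of macrophage over tumor CPM are descriptions with no test, and in bulk samples fewer cells of a type and less RNA per cell cannot be told apart. Slc11a1, a divalent metal transporter of phagosomes that is known as a gene of macrophages and neutrophils, had the highest ratio of the 10 in 3 of the 4 mice, at 19.6 and 72.9 in the mice labelled cKO (725, 746) and 37.8 and 21.3 in the controls (706, 720). The marker genes Adgre1 and Csf1r reached ratios of 18.9 to 27.9 and 19.6 to 29.1 in the same mice. Hmox1, the inducible enzyme that opens the heme ring, had ratios of 24.5 and 6.96 in the mice labelled cKO and 26.6 and 7.08 in the controls. Ftl1 had ratios of 8.50 to 15.4 and Fth1 of 4.31 to 7.10, so both ferritin chains were higher in the sorted cells of every one of the 4 mice.

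Tfrc and Ireb2 went the other way. Tfrc had ratios of 0.638 and 0.608 in the mice labelled cKO and 0.673 and 0.503 in the controls, and Ireb2 ratios of 0.430 to 0.621, below 1 in all 4 mice. Slc40a1, the known cellular iron exporter, had ratios of 0.822 and 1.31 in the mice labelled cKO and 0.467 and 0.648 in the controls. With both tables scaled to their protein-coding genes its ratios were 0.326 to 0.941, below 1 in all 4 mice. Lcn2 (0.723 to 1.53) and Aco1 (0.568 to 1.78) lay on both sides of 1. Slc11a2 had ratios of 1.41 to 3.22, but under the same scaling these became 0.878 to 2.31, so its direction was not the same in all mice. Protein-coding genes took 67.6% to 80.1% of macrophage CPM and 49.7% to 56.5% of tumor CPM. As a sum, epithelial markers were not depleted in the sorted cells of these mice, at 2150 to 3120 CPM against 1173 to 1296 CPM in tumors. Single markers differed, since Krt8 had ratios of 5.31 to 7.91 and Epcam of 0.816 to 1.87. Elf5 was lower in the sorted cells of all 4 mice, at 68.2 to 96.9 CPM against 157 to 182 CPM in tumors. The part of epithelial markers in the ratios of the iron genes was not tested.

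**Figure D2:**
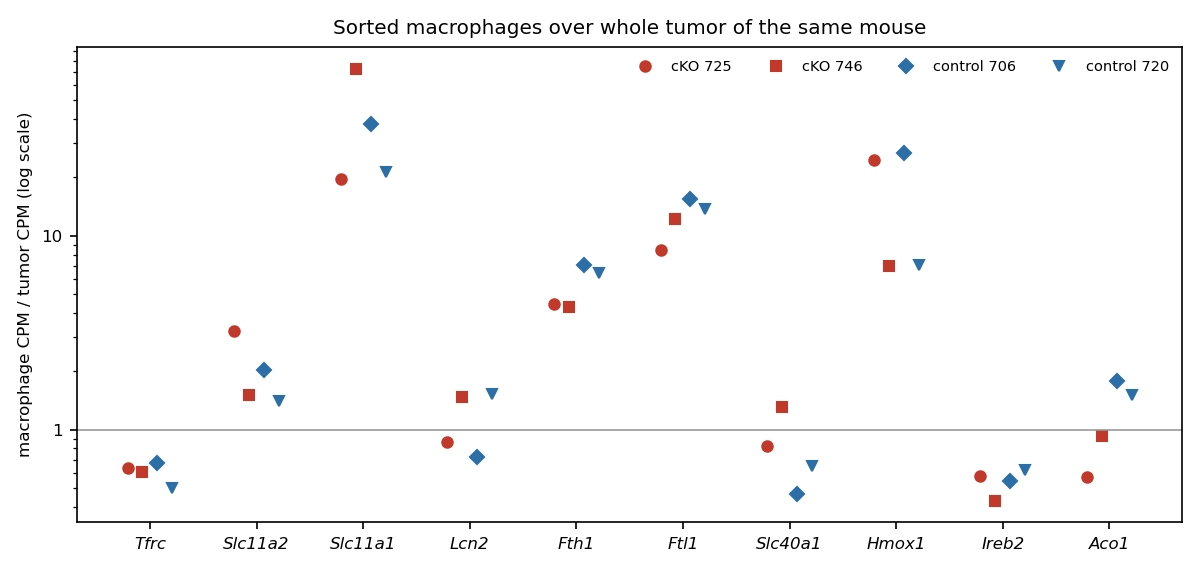
Ratio of macrophage CPM to whole-tumor CPM of the same mouse (log axis) for each iron gene, red for mice labelled cKO and blue for controls, with the grey line at 1. Slc11a1, Hmox1, Ftl1 and Fth1 lie above 4 in every mouse, and Tfrc and Ireb2 lie below 1 in every mouse.

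The design also asks whether these genes differ between libraries labelled cKO and control. In macrophages limma called 0 of 16304 genes (0%) at a Benjamini-Hochberg adjusted p under 0.05, and 428 (2.63%) had an unadjusted p under 0.05. None of the 10 iron genes passed either limit, and their adjusted p was 0.9998 in each case by limma. The difference was above 0 in 5 of 10 iron genes, against 54.7% of all genes tested, and its median was 0.11 on the log2(CPM + 1) scale for the 10 and 0.05 for all genes. In whole tumors limma called 0 of 14630 genes (0%), and 856 (5.85%) had an unadjusted p under 0.05, among them 1 iron gene, Tfrc. The difference was above 0 in 4 of 10 iron genes in tumors, against 56.6% of all genes, with a median of −0.08 for the 10 and 0.09 for all genes. The log2(CPM + 1) scale understates differences of weakly expressed genes.

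Tfrc, the transferrin receptor, is known for a high level in dividing cells. In whole tumors it had 112 and 127 CPM in the libraries labelled cKO (725, 746), against 240 and 185 CPM in the controls (706, 720). Both libraries labelled cKO lay below both controls, as did 14.3% of all genes tested in tumors. The log2 difference was −0.81 (SE 0.21, 95% interval −1.25 to −0.38), with an adjusted p of 0.645 by limma. In the same tumors the summed cell cycle markers were 386 and 436 CPM in the libraries labelled cKO and 423 to 429 CPM in the controls, and the summed fibroblast markers 331 to 445 CPM in the libraries labelled cKO and 595 to 704 CPM in the controls. The part of either in the Tfrc values was not tested.

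In sorted macrophages Tfrc had 71.3, 77.5 and 134 CPM in the libraries labelled cKO (725, 746, 867), against 161, 93.1 and 86.1 CPM in the controls (706, 720, 775). The 4 mice that also gave tumors kept the tumor order, but cKO 867 lay above 2 of the 3 controls, so the groups overlapped. The difference was −0.26 (SE 0.30, interval −0.89 to 0.36) over 6 libraries and −0.71 over those 4 mice, and 0.016 without control 706.

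Slc11a2, the metal transporter that carries iron across the endosomal membrane, had 62.1, 42.7 and 88.9 CPM in macrophage libraries labelled cKO, against 48.1, 47.4 and 37.5 CPM in controls. Its groups overlapped through cKO 746, and the difference was 0.48 (SE 0.31, interval −0.17 to 1.13). It was 0.74 without cKO 746, 0.22 without cKO 867 and 0.11 over the 4 mice in both tables. In tumors it had 19.3 and 28.2 CPM in libraries labelled cKO, against 23.8 and 33.5 CPM in controls, a difference of −0.27 (SE 0.36) that was −0.0035 without cKO 725, −0.028 without control 720, −0.53 without cKO 746 and −0.51 without control 706.

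Slc11a1 had 46.7, 70.0 and 42.4 CPM in macrophage libraries labelled cKO, against 49.8, 55.6 and 18.7 CPM in controls. Control 775 was the low library, and the difference of 0.46 (SE 0.37, interval −0.31 to 1.23) became −0.023 without it. In tumors Slc11a1 was low, at 2.38 and 0.960 CPM in libraries labelled cKO and 1.32 and 2.61 CPM in controls, a difference of −0.17 with a wide interval of −2.09 to 1.75 that turned to 0.22 without cKO 746 and to 0.15 without control 720. B6 mice are known to carry a loss-of-function coding allele of Slc11a1, which the RNA level does not show.

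Lcn2 encodes lipocalin 2, a secreted protein that binds iron-carrying siderophores and is known from neutrophils and from mammary tumor epithelium. In macrophage libraries it had 674, 1456 and 706 CPM in those labelled cKO, against 574, 1195 and 568 CPM in controls. The spread was set by 1 high library in each group, cKO 746 and control 720, and the difference of 0.28 (SE 0.33) became −0.082 without cKO 746. In tumors Lcn2 varied less, with 784 and 987 CPM in libraries labelled cKO and 795 and 780 CPM in controls, a difference of 0.16 (SE 0.17) that became −0.0052 without cKO 746. Of 12 neutrophil markers 7 were listed in macrophages, with a sum of 199 to 245 CPM in libraries labelled cKO and 212 to 355 CPM in controls. Most of that sum was Ltf, the iron-binding lactoferrin, at 170 to 289 CPM over the 6 libraries. Csf3r had 24.6, 39.7 and 18.9 CPM in libraries labelled cKO, against 24.6, 50.5 and 13.4 CPM in controls. Its 2 highest libraries, control 720 and cKO 746, were also those of Lcn2. The epithelial markers Epcam and Krt8 had the same 2 highest libraries, and the remaining epithelial markers did not. Mmp8 had at most 10.2 CPM (control 720), Retnlg at most 6.25 CPM (control 706) and Ly6g at most 0.787 CPM (cKO 725). The neutrophil genes S100a8 (0.0435 to 5.63 CPM) and S100a9 (0.590 CPM in cKO 725 and listed at 0 in the other 5) were at or near 0. The summed epithelial markers were highest in cKO 746, at 3120 CPM. The part of the neutrophil or the epithelial markers in the Lcn2 values was not tested.

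Fth1 encodes the ferritin heavy chain, which oxidizes iron for storage. In macrophages it had 763, 953 and 549 CPM in libraries labelled cKO, against 1446, 926 and 364 CPM in controls. The controls spanned the whole range of the libraries labelled cKO, and the difference was −0.097 (SE 0.37, interval −0.86 to 0.66). It became 0.34 without control 706, 0.020 without control 720 and 0.11 without cKO 867. In tumors Fth1 had 172 and 221 CPM in libraries labelled cKO, against 204 and 144 CPM in controls, a difference of 0.19 (SE 0.22) that turned to −0.062 without control 720.

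Ftl1 encodes the ferritin light chain, which helps to form the iron core. In macrophages it had 267, 579 and 244 CPM in libraries labelled cKO, against 530, 405 and 106 CPM in controls, and the groups overlapped. The difference of 0.24 (SE 0.42) turned to −0.15 without cKO 746, to −0.46 without control 775 and to −0.24 over the 4 mice in both tables. In tumors Ftl1 had 31.4 and 47.5 CPM in libraries labelled cKO, against 34.4 and 29.5 CPM in controls, a difference of 0.27 (SE 0.32) that became −0.019 without cKO 746. Ftl1 values are uncertain in level, since 66.0% of its 75-base stretches also occur in the copy Ftl1-ps1, which carries the same iron-responsive element. Ftl1 and Ftl1-ps1 together had 627, 1173 and 482 CPM in macrophage libraries labelled cKO, against 1291, 776 and 209 CPM in controls, and 60.7 and 78.6 CPM in tumors labelled cKO, against 63.1 and 79.8 CPM in control tumors. The sum kept the order of the libraries within each macrophage group, with a difference of 0.25, and turned the tumor difference to −0.039.

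Slc40a1 encodes ferroportin. In macrophages it had 34.0, 50.1 and 30.2 CPM in libraries labelled cKO, against 17.3, 33.1 and 35.4 CPM in controls. Control 706, which had the highest Tfrc, Fth1 and Hmox1 of the 6, had the lowest Slc40a1. The difference was 0.43 (SE 0.36, interval −0.32 to 1.19), and it was 0.12 without control 706 and 0.76 over the 4 mice in both tables. In tumors Slc40a1 had 41.4 and 38.2 CPM in libraries labelled cKO, against 37.0 and 51.1 CPM in controls, a difference of −0.13 (SE 0.29) that turned to 0.10 without control 720.

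Hmox1 was the most variable of the 10 in tumors and, with Ftl1, in macrophages. It had 94.5, 173 and 157 CPM in macrophage libraries labelled cKO, against 314, 158 and 54.4 CPM in controls, so the highest and the lowest library were both controls. The difference of −0.029 (SE 0.41) took the other sign without cKO 725 (0.24), control 706 (0.55) or control 720 (0.059), and was −0.80 over the 4 mice in both tables. In tumors Hmox1 had 3.86 and 24.8 CPM in libraries labelled cKO, against 11.8 and 22.3 CPM in controls. Its difference of −0.63 (SE 0.65, interval −1.99 to 0.74) rested on cKO 725 and was 0.58 without it. The summed erythroid markers, a sign of red cells, were 9.78 CPM in that tumor, 29.9 CPM in cKO 746 and 28.0 to 32.2 CPM in the control tumors, and their part in Hmox1 was not tested.

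Ireb2 encodes iron regulatory protein 2, which is degraded when iron is plentiful. In macrophages it had 207, 158 and 191 CPM in libraries labelled cKO, against 213, 222 and 253 CPM in controls. All 3 libraries labelled cKO lay below all 3 controls, which was so for 3.45% of all genes tested and for no other iron gene, and 0 of the 10 had all libraries labelled cKO above all controls (3.78% of all genes). The margin was small, and the difference was −0.31 (SE 0.24, interval −0.81 to 0.19). In tumors Ireb2 was the steadiest of the 10, at 360 and 368 CPM in libraries labelled cKO and 390 and 357 CPM in controls, a difference of −0.035 (SE 0.17) that was 0.027 without control 706.

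Aco1 encodes cytosolic aconitase, which becomes iron regulatory protein 1 when it loses its iron-sulfur cluster. In tumors it had 47.8 and 48.1 CPM in libraries labelled cKO, against 29.1 and 33.9 CPM in controls. Both libraries labelled cKO lay above both controls, as did 21.2% of all genes tested in tumors, and the difference was 0.60 (SE 0.29, interval −0.020 to 1.21), with an adjusted p of 0.833 by limma. In macrophages Aco1 had 27.1, 44.5 and 54.6 CPM in libraries labelled cKO, against 51.6, 51.2 and 34.2 CPM in controls. These groups overlapped, and the difference of −0.15 (SE 0.33) was 0.13 without cKO 725.

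**Figure D3:**
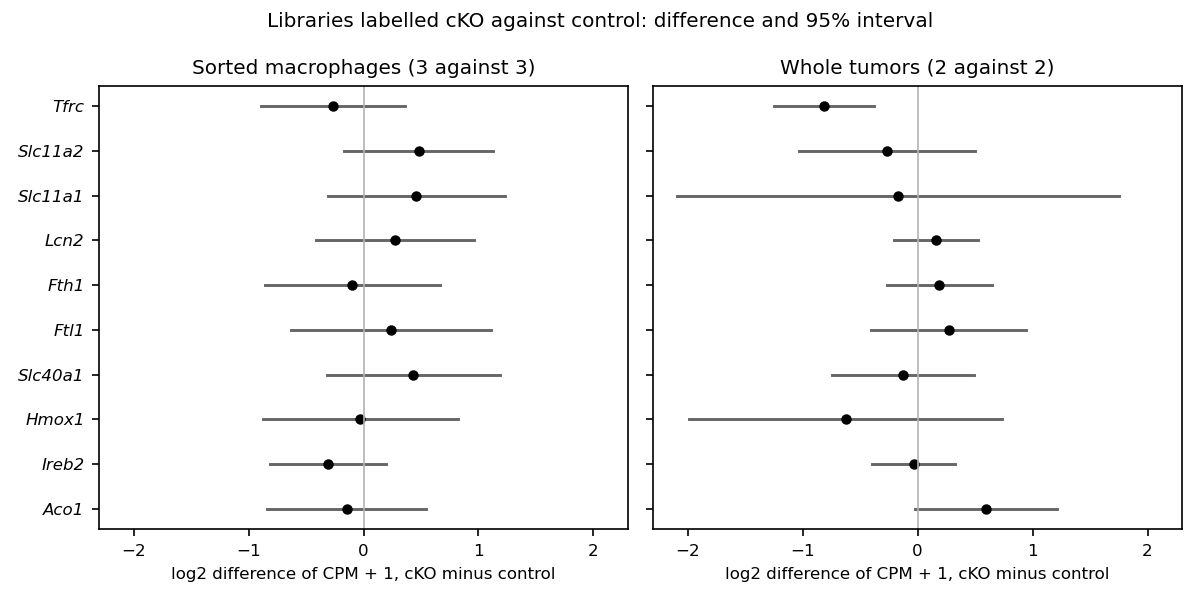
Log2 difference of CPM + 1, libraries labelled cKO minus control, for each iron gene in sorted macrophages (left, 3 against 3) and whole tumors (right, 2 against 2), with points for the limma estimate and bars for its 95% interval. The intervals of all 10 genes include 0 in macrophages, and in tumors only that of Tfrc (−1.25 to −0.38) does not.

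Under both labels the macrophage libraries differed among themselves in several of the 10 genes at once. Hmox1, Fth1, Ftl1 and Slc11a1 each had their lowest value in control 775, 1.06 to 1.53 log2 units below their own means over the 6 libraries, and that library also had the lowest summed macrophage markers. Hmox1 and Fth1 had their highest value in control 706, at 1.18 and 0.92 above their means, while Ftl1, Slc11a1, Lcn2 and Slc40a1 had theirs in cKO 746, at 0.63 to 0.91, the library with the highest macrophage and epithelial markers. For Ftl1 this depends on how shared reads were assigned. Ftl1 and Ftl1-ps1 together were highest in control 706 (1291 CPM), above cKO 746 (1173 CPM). Whether the share of macrophages in a sort moves these genes was not tested. The SD over the 6 libraries on the log2 scale was 0.23 for Ireb2, 0.85 for Hmox1 and 0.90 for Ftl1, against a median of 0.59 over all genes tested.

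**Figure D4:**
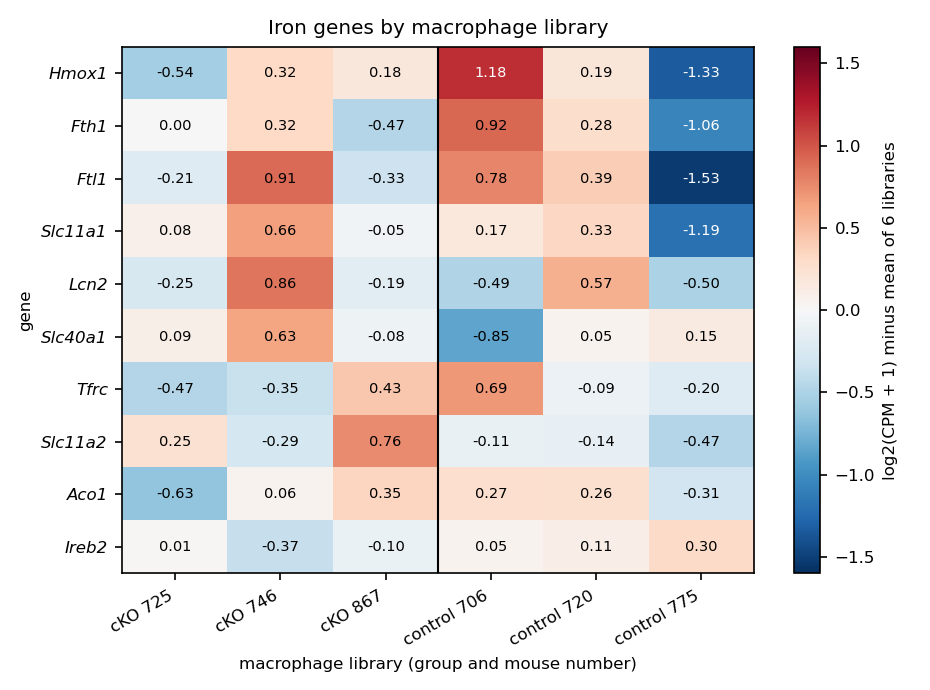
Deviation of each iron gene from its own mean over the 6 macrophage libraries, in log2(CPM + 1), with genes in rows and libraries in columns (labelled cKO left, control right of the black line), red above and blue below the mean. The column of control 775 is low for Hmox1, Fth1, Ftl1 and Slc11a1 (−1.06 to −1.53), and control 706 is high for Hmox1 (1.18) and low for Slc40a1 (−0.85).

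Ratios within a library do not depend on how it was scaled, and 4 were compared in each table. In macrophages the log2 ratio of Slc40a1 over Tfrc per kb, export against uptake, was −0.75 ± 0.78 in libraries labelled cKO and −1.46 ± 1.06 in controls (SD, n = 3 each), a difference of 0.72 with an exact two-sided permutation p of 0.5. That difference was 0.10 without control 706 and 1.15 without cKO 867. In tumors the same ratio was −1.05 ± 0.22 in libraries labelled cKO and −1.74 ± 0.59 in controls (SD, n = 2 each), a difference of 0.69 with an exact permutation p of 0.333, and it ran from 0.27 (without control 706) to 1.11 (without control 720). The ratio of heavy to light ferritin chain, taken as Fth1 over Ftl1 alone, differed by −0.34 in macrophages (exact permutation p = 0.4) and by −0.088 in tumors (exact permutation p = 0.667). Of Ftl1 plus Ftl1-ps1, Ftl1 held 41.0% to 52.2% in macrophages and 36.9% to 60.4% in tumors. The chain ratio is thus uncertain, and it was not computed with that sum. Ireb2 over Aco1 differed by −0.16 in macrophages (exact permutation p = 0.6) and by −0.65 in tumors (exact permutation p = 0.333), and Slc11a1 over Slc11a2 by −0.013 and −0.017. Adjusted over the 4 ratios, the exact permutation p lay between 0.667 and 1.0, and neither design could go below 0.1 (3 against 3) or 0.333 (2 against 2).

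Other genes of iron uptake and reduction were measured beside the 10. None of the 11 tested in macrophages passed the adjusted limit in limma, with 5 higher and 6 lower in libraries labelled cKO. Cybrd1, a ferric reductase, had 0.885, 0 and 0.0795 CPM in macrophage libraries labelled cKO, against 4.38, 7.88 and 4.0 CPM in controls. By counting error alone a value of 0 allows up to 0.119 to 0.209 CPM, depending on the library, and a value of a few reads allows more. Slc22a17, reported as a receptor for lipocalin 2, had 9.54, 16.3 and 10.3 CPM in libraries labelled cKO, against 3.68, 4.94 and 4.61 CPM in controls. In macrophages every library labelled cKO lay below every control for Cybrd1 (3.45% of all genes) and above every control for Slc22a17 (3.78% of all genes), while in tumors the groups overlapped for both, and they were picked for naming after their values were seen. In tumors 7 of 10 tested were higher and 3 lower, 6 of them with both libraries labelled cKO above both controls (21.2% of all genes), and none passed the adjusted limit. Steap3, the endosomal ferric reductase, had 12.7 and 3.33 CPM in tumors labelled cKO, against 1.52 and 0 CPM in control tumors. Steap4, another metalloreductase, had 92.6 and 91.0 CPM in tumors labelled cKO, against 39.3 and 74.4 CPM in control tumors. Scara5, a ferritin receptor, had 22.0 and 44.0 CPM in tumors labelled cKO, against 19.9 and 13.5 CPM in control tumors, and it and Steap4 were named after their values were seen. Slc39a14, a transporter of iron not bound to transferrin, had 96.8 to 179 CPM in macrophages and 77.9 to 108 CPM in tumors.

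Of 4 tested genes that handle stored iron, 4 were lower in macrophages and 1 in tumors, none past the adjusted limit in limma. Ncoa4, the receptor that delivers ferritin to autophagy, had 95.9 to 128 CPM in macrophages, and 74.1 and 73.1 CPM in tumors labelled cKO, against 79.7 and 90.4 CPM in control tumors. Of export genes, 3 were tested in macrophages and 2 in tumors, with 1 higher in each and none called. Cp, the ferroxidase ceruloplasmin, was abundant, at 468 to 835 CPM in macrophage libraries and 510 to 613 CPM in tumors. Heph, a related membrane ferroxidase, had 3.75 to 12.7 CPM in macrophages and 2.51 to 19.4 CPM in tumors. Hamp, the hormone hepcidin that removes ferroportin from the surface, had 0.885 CPM in macrophage library cKO 725 and was listed at 0 in the other 5.

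The 10 tested genes of heme uptake, transport and breakdown had 6 members higher and 4 lower in macrophages labelled cKO, and 8 higher and 2 lower in tumors labelled cKO, with none called by limma. Cd163, the scavenger receptor for hemoglobin bound to haptoglobin, had 11.5, 11.3 and 145 CPM in macrophage libraries labelled cKO, against 5.14, 16.2 and 34.5 CPM in controls. The highest value was that of cKO 867, the library with the highest fibroblast and endothelial markers. It also had the highest sum of 6 resident macrophage markers, Cd163 among them, at 732 CPM, against 235 to 274 CPM in the controls, and the highest Mrc1, at 507 CPM, against 61.5 to 153 CPM in the other 5. The part of these in the Cd163 value was not tested. Lrp1, a receptor for heme bound to hemopexin, had 211 to 560 CPM in macrophages and 47.3 to 107 CPM in tumors. The heme transporters Slc48a1 and Flvcr1 had 39.0 to 58.2 CPM and 92.9 to 121 CPM in macrophages. In tumors Slc48a1 had 51.8 and 44.2 CPM in libraries labelled cKO, against 38.6 and 30.2 CPM in controls, and Flvcr1 had 35.0 and 33.3 CPM in libraries labelled cKO, against 42.8 and 50.1 CPM in controls. Hmox2, the constitutive heme oxygenase, had at most 27.7 CPM in macrophages and 8.06 CPM in tumors, and Blvrb, a biliverdin reductase, at most 8.75 CPM and 3.70 CPM.

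Of the 12 tested genes of iron sensing and regulation, 11 were higher and 1 lower in macrophages labelled cKO, with a median log2 difference of 0.19, against 0.05 for all genes, and none called by limma. Bach1, a heme-sensing repressor of Hmox1 and ferritin genes, had 388, 416 and 566 CPM in macrophage libraries labelled cKO, against 303, 424 and 266 CPM in controls, and cKO 725 and 746 lay below control 720, so the groups overlapped. Nfe2l2, the activator that competes with it, had 265, 288 and 204 CPM in libraries labelled cKO, against 353, 231 and 153 CPM in controls. Both were more abundant in macrophages than in the tumor of the same mouse, with ratios of 3.03 to 5.41 for Bach1 and 5.23 to 6.69 for Nfe2l2 over the 4 mice. Fbxl5, the iron sensor that marks Ireb2 protein for degradation, had 132 to 204 CPM in macrophages and 111 to 154 CPM in tumors. In tumors labelled cKO 9 of 11 tested were higher and 2 lower, with a median of 0.20 against 0.09 for all genes and none called.

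Genes whose pattern over the 10 libraries was most like that of 4 iron genes were ranked by the root mean square difference of log2(CPM + 1) after centring each gene within its table, among 8518 candidates. The nearest to Tfrc were Hbs1l (0.17), Nkapd1 (0.19) and Scarb1 (0.19), and those to Lcn2 were Fn3krp (0.14), Adar (0.15) and Phlda1 (0.16). Slc40a1 was nearest to Bap1 (0.12), Pmpcb (0.15) and Trp53 (0.16), and Hmox1 to Lrig3 (0.35), Ddit4 (0.35) and Sod1 (0.38). No other iron gene was among the 3 nearest of any of the 4. With so many candidates and 10 libraries, the ranking is a description of these libraries.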

How the data were processed

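Per the labels' protocols, RNA was depleted of ribosomal RNA, and the tools named, per the submitters' processing notes, are Partek and STAR 2.7.8a, with the build GRCm38 (mm10). The counting rule, its use of strand and the normalization formula are not given in the sources used here. The authors deposited log2 values. Once back-transformed and reduced by 1, they add up to 1e+06 per library, so they were read as log2(CPM + 1) and used without a further logarithm, although the test had been planned for linear values. Within 0.1 read, 81.2% to 88.6% of low values were whole reads, too few for a count test. A gene listed at 0 allows 3 reads, which is 0.119 to 0.209 CPM in macrophages and 0.0561 to 0.0876 CPM in tumors, for counting error only.

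The 2 tables had separate limma fits (version 3.58.1, R 4.3.3, trend, pseudocount 1, mean of at least 1 CPM, 95% intervals) of the libraries labelled cKO minus control. These used Benjamini-Hochberg adjustment over all genes tested and a threshold of 0.05, and the code was tested on simulated data. Ratios were compared by exact permutation in scipy 1.17.1. The members, lists and named genes were chosen with earlier results of these data known, so their values support nothing beyond description. Named genes are the 10, 20 others of the iron and heme lists, and any list member past the threshold, which none was. A few more were picked after their values were seen and are marked so. Single markers of the cell type lists, such as Mrc1, Csf3r, Mmp8, Retnlg and Elf5, were named with their values known and are not marked. Alternatives were other pseudocounts (0.1 and 5), filters, scalings, a fit without trend, library weights, the 4 mice in both tables, and each library left out. Positions come from GENCODE vM21 by gene identifier, since deposited starts matched it in 2.19% and 2.29% of genes. Reads of Ftl1 and its copies, of Slc11a2 and Gm5475, of Fth1 and Gm56642, and of Ftl1 and Gm10252 could not be told apart where they overlap.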

Additional observations from a re-analysis of the deposited data

How the results depend on the processing

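No paired analysis was possible because the labels speak of size-matched pairs without naming the partners. The count of genes called was 0 in tumors under every alternative run, and in macrophages lay between 0 and 3 with single libraries left out (1 without cKO 867, 1 without control 706, 3 without control 775) and was 2 over the 4 mice in both tables. None of the 10 iron genes was called under any of these. Of 160 alternatives for them in macrophages 147 kept the direction and 13 did not, and of 129 in tumors 121 did and 8 did not. These counts include alternatives that could not turn a direction. Other filters and a fit without trend leave each difference as it is, and in tumors the library weights did so too. Slc11a2, Slc40a1 and Ireb2 in macrophages and Tfrc, Slc11a2 and Aco1 in tumors never turned. Apart from single libraries, only Ftl1 turned, to −0.24 over the 4 mice in both tables. The causes were not tested.

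With each library left out in turn, macrophage differences ran from −0.55 to 0.016 for Tfrc, −0.023 to 0.74 for Slc11a1, −0.082 to 0.63 for Lcn2, −0.65 to 0.34 for Fth1, −0.46 to 0.69 for Ftl1, −0.70 to 0.55 for Hmox1, −0.36 to 0.13 for Aco1, 0.22 to 0.74 for Slc11a2, 0.12 to 0.61 for Slc40a1 and −0.39 to −0.20 for Ireb2. In tumors, where a lone library is assumed to vary like the others, they ran from −0.56 to 0.22 for Slc11a1, −0.0052 to 0.33 for Lcn2, −0.062 to 0.44 for Fth1, −0.019 to 0.56 for Ftl1, −0.35 to 0.10 for Slc40a1, −1.83 to 0.58 for Hmox1 and −0.098 to 0.027 for Ireb2. Tfrc in tumors ran from −1.0 to −0.63, Slc11a2 from −0.53 to −0.0035 and Aco1 from 0.49 to 0.70. The ratio Slc40a1 over Tfrc ran from 0.10 to 1.15 in macrophages and 0.27 to 1.11 in tumors, Slc11a1 over Slc11a2 from −0.50 to 0.39 in macrophages and −0.95 to 0.91 in tumors, Ireb2 over Aco1 from −0.53 to 0.11 in macrophages and −0.82 to −0.47 in tumors, and Fth1 over Ftl1 from −0.53 to −0.13 in macrophages and −0.23 to 0.052 in tumors. Scaling to protein-coding genes moved the median of all genes in tumors by −0.11, and Slc11a1 in tumors did not pass a filter of 5 CPM.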

Other observations

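Genes that use iron or respond to the same stress signals as Hmox1 were measured in the same libraries, and none was called by limma in either table. Of 8 heme synthesis genes, 4 were higher and 4 lower in macrophages labelled cKO, and 6 were higher and 2 lower in tumors labelled cKO. Alad, an early enzyme of that route, had 7.64 and 5.34 CPM in tumors labelled cKO, against 2.52 and 0.0287 CPM in control tumors, and was named after its values were seen. Of 13 tested genes of mitochondrial iron and iron-sulfur clusters, 9 were higher and 4 lower in macrophages labelled cKO, with a median log2 difference of 0.26, against 0.05 for all genes, and of 12 in tumors 5 were higher and 7 lower. Slc25a37, the mitochondrial iron importer, had 14.7 to 43.4 CPM in macrophages and 9.0 to 20.7 CPM in tumors.

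Of 10 tested target genes of Nrf2, the protein of Nfe2l2, 6 were higher and 4 lower in macrophages labelled cKO, and of 9 in tumors 7 were higher and 2 lower. Nqo1, a quinone reductase, had 15.0, 23.1 and 22.2 CPM in macrophage libraries labelled cKO, against 3.27, 42.4 and 22.8 CPM in controls. Control 706, with the highest Hmox1 of the 6 libraries, thus had the lowest Nqo1. The targets did not share 1 direction there. Srxn1 (35.6 CPM) and Gsr (104 CPM) were also lowest in control 706, while Prdx1 (410 CPM) and Gclm (49.4 CPM) were highest, and the remaining targets lay between. Srxn1, Gsr and Gclm were named after their values were seen. Prdx1, a peroxidase, had 195 and 188 CPM in tumors labelled cKO, against 272 and 253 CPM in control tumors, and was named after its values were seen.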
